A study of Mus musculus with 15 samples.

Results

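The cytosolic ribosomal protein genes are the genes whose products, together with ribosomal RNA, build the small (40S) and large (60S) subunits of the ribosome in the cytoplasm. Members were the genes whose symbol follows the Rpl and Rps naming pattern, with Rplp0 to Rplp2 and Rpsa, on probe sets annotated to 1 gene. This gave 46 of the 18193 genes with such a probe set, 40 of which were bright enough to be tested among 11925 genes (21 of the large and 19 of the small subunit). A further 28 symbols of the same pattern, among them Rpl3, Rpl5, Rpl10, Rpl36a and Rplp1, were annotated here only on probe sets shared with other genes or pseudogenes and are not members. The symbol pattern and the brightest probe set per gene chose the members, and the pattern itself uses no difference between groups.

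All RNA came from foam cells, lipid-filled macrophages of atherosclerotic lesions, that were laser-captured in the aortic sinus of C57BL/6 mice with the ApoE-/- genotype, which every group including CHOW carries. The 3 groups held 5 arrays each: regular chow to 22 weeks (CHOW), western-type diet for 14 weeks from week 8 to week 22 (14w-WD), or only 2 weeks of it (2w-WD). For 2w-WD the sample labels put 20 weeks of chow before the diet while the series text dates the diet to weeks 22 to 24, so the age of these mice is uncertain. No label says which arrays came from separate animals or whether animals were pooled; the p-values therefore describe variation among samples, part of which may be technical. RNA was amplified before labelling, and in such samples fewer cells of a type and less RNA per cell cannot be told apart.

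Ribosomal protein genes are among the most strongly transcribed genes of any cell, and their products are needed in matched amounts. Their mRNAs typically begin with a cytosine and a run of pyrimidines, the 5′ terminal oligopyrimidine (TOP) tract, through which mTOR and the RNA-binding protein Larp1 set how much of them is translated. Several ribosomal proteins also act outside the ribosome, such as Rpl5 and Rpl11, which bind Mdm2 and thereby stabilise p53. Control through the TOP tract acts on translation, which RNA levels on an array do not measure.

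The tract is shown for the members the results turn on and for 2 paralogs that differ in it at the annotated first base. The sequences are RefSeq windows of build GRCm38.p6, with 15 bases before the annotated start and 15 from it on, and capitals mark the pyrimidine run around the start.

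Rpl14, chr9:120571502-120571531, plus strand: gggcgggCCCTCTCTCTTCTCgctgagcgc

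Rplp2, chr7:141447636-141447665, plus strand: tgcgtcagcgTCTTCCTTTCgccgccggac

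Rps6, chr4:86857353-86857382, minus strand: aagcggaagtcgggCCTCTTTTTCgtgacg

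Rps27, chr3:90213634-90213663, minus strand: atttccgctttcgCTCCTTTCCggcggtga

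Rps27l, chr9:66946071-66946100, plus strand: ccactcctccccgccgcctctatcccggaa

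The Rps27l window is the first of its 2 annotated starts, and neither has the tract at its first base. Of the 46 members, 40 had a RefSeq promoter window. A C at the annotated first base followed by at least 4 pyrimidines (C or T) was found in 8 of these 40 (20.0%) and in 3.01% of the 27025 genes with a window. The 8 were Rpl14, Rpl35, Rpl38, Rplp2, Rps6, Rps10, Rps18 and Rps27. The heptamer CCGGAAG, an ETS-type letter string searched on both strands over 300 bases (250 before the start and 50 after it), lay in 20 members (50%) and in 9.93% of all genes. A looser match, a C with 4 pyrimidines after it anywhere from 5 bases before to 10 after the start, was found in 47.5% of members and 21.2% of all genes. Rps27 and Rps27l both had this looser match. The other strings searched on both strands were GGGCGG (55% of members, 38.2% of all genes), CACGTG (10% and 8.09%) and CTCTTTC (17.5% and 9.28%). The string TATAAA lay in 5 members (12.5%) and in 15.7% of all genes. These are matches of letters only, and annotated starts can lie some bases away from the true ones.

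The levels below are log2(intensity + 16) of deposited intensities, and a difference on this scale understates the change of dim genes. On this array most members were very bright. Of the 40 tested members, 21 had a mean log2 level of 13 or more, a brightness reached by 267 of all tested genes. The brightest probe sets were those of Rps28, with a mean intensity of 21200, and Rpsa, with 20600, while the highest intensity on an array ran from 23187 to 30343. The levels of different genes come from different probes and are not compared.

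The spread between replicate arrays followed brightness. The 21 bright members had a median within-group SD of 0.15 (log2), against 0.20 for all 267 tested genes of that brightness. The 19 dimmer members had a median SD of 0.41, against 0.48 for all tested genes below 13. The widest was Rps25, a small-subunit protein, with an SD of 0.81, and the narrowest was Rpl35, a large-subunit protein, with 0.09.

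**Figure D1:**
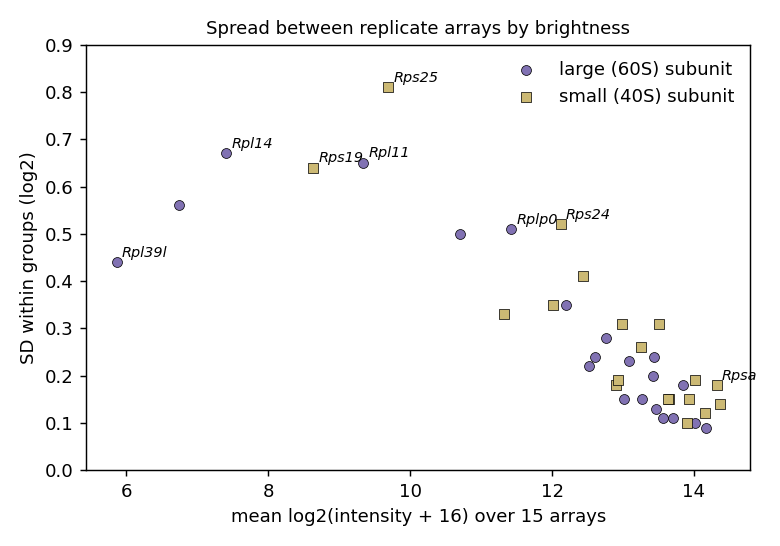
Within-group SD over the 3 groups of 5 arrays (y, log2) against the mean log2(intensity + 16) over 15 arrays (x) for 40 ribosomal protein genes, circles for the large and squares for the small subunit. Members above a level of 13 have an SD of 0.31 or less, while Rps25, Rpl14, Rpl11 and Rps19 lie above 0.6.

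The arrays themselves differed. On 2w-WD replicate 4 all 40 members lay below their own mean over the 15 arrays, by a median of 0.47, and 17 of them (42.5%) had their lowest value there. Of all tested genes, 25.9% had their lowest value on that array. It also had the lowest mean intensity (274, against 331 to 418 on the others). On 2w-WD replicate 2, 31 of 40 members lay below their mean, by a median of 0.18 over the members. The median deviation of all tested genes was -0.33 on 2w-WD replicate 4 and -0.18 on 2w-WD replicate 2, so these arrays were low in general. On CHOW replicate 1 the median deviation was -0.20 for members and 0.07 for all tested genes. On CHOW replicate 1, 12 members (30%) had their lowest value, against 10.1% of all tested genes. There the low values were mainly those of probe sets whose suffix (_x_at or _s_at) marks probes that can bind several transcripts: 15 of 17 such members lay below their mean, against 12 of the other 23. The 14w-WD arrays stood close together, with member medians 0.03 to 0.14 above the mean. Medians over all tested genes on these arrays were 0.04 to 0.23 above it.

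**Figure D2:**
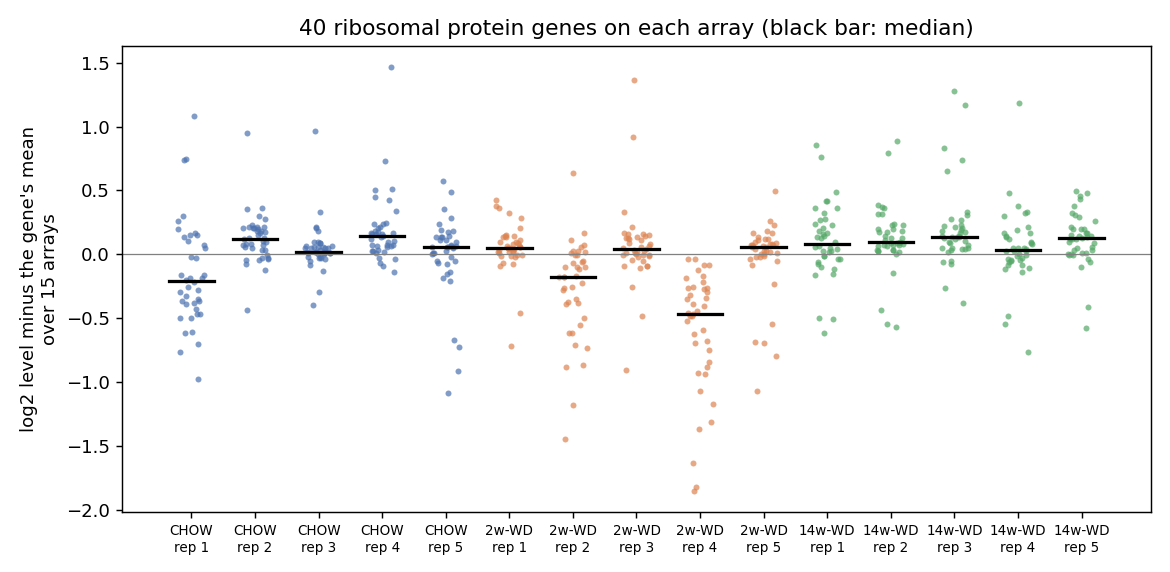
Each point is 1 of 40 ribosomal protein genes on 1 of 15 arrays, drawn as its log2 level minus its mean over all arrays (y), with the arrays by group (x) and a black bar at the median of the 40. The bars of CHOW replicate 1, 2w-WD replicate 2 and 2w-WD replicate 4 lie at -0.20, -0.18 and -0.47, and all other arrays lie between 0.01 and 0.14.

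Markers of the captured cells were low on the 2 low 2w-WD arrays and not on CHOW replicate 1. The mean log2 level of 18 macrophage markers, given as mean ± SD of 5 arrays, was 10.67 ± 0.34 for CHOW, then 10.27 ± 0.30 for 2w-WD and 10.81 ± 0.21 for 14w-WD. Its lowest values, 9.86 and 10.05, were on 2w-WD replicates 4 and 2, while CHOW replicate 1 had 11.06, as high as any array. The low values were not confined to macrophage markers. The fibroblast list was also lowest on 2w-WD replicates 4 and 2, at 9.49 and 9.59. On the same arrays the endothelial list stood at 6.03, its lowest, and 6.60, and the heart muscle list at 9.63 and 11.41. The 16 heart muscle markers, from a tissue next to the aortic sinus, averaged 9.24 ± 1.55, 10.30 ± 1.28 and 9.72 ± 0.91, with single arrays from 6.72 to 11.95. Of 11 endothelial markers, the defining Pecam1, Kdr, Tek and Tie1 lay below the level needed for testing. None of the 9 cell type lists had a gene past the test in either comparison with CHOW. In 14w-WD against 2w-WD, 2 of 17 macrophage, 3 of 10 fibroblast and 1 of 8 smooth muscle markers tested rose, against 10.1% of all tested genes, and 1 of 6 T and NK cell markers fell, against 1.15%. The part of these markers in the results below was not tested.

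The comparison of 2w-WD with CHOW asks what 2 weeks of the diet changed. The median member was 0.13 lower (log2) in 2w-WD, and 32 of 40 members (80.0%) had a lower mean. The median of all tested genes was 0.10 lower, with 61.2% of them below 0. Without _x_at and _s_at probe sets the medians were -0.27 for members and -0.11 for all genes. With the mean of a gene's probe sets they were -0.18 and -0.09, so how far members and all genes differed turned with the choice of probe set. By limma with Benjamini-Hochberg adjustment over all genes, 0 of 40 members passed an adjusted p of 0.05, and so did 0.0% of all tested genes. At an unadjusted p under 0.05, 8 members were lower and 0 higher (20.0% lower, against 7.3% of all genes): Rpl19, Rplp2, Rps3, Rps4x, Rps19, Rps24, Rps26 and Rpsa. These shares are not matched for brightness. In either direction, 3 of the 21 bright members had such a p, and 47 of all 267 tested genes of that brightness. Among dimmer genes it was 5 of 19 members and 1117 of all 11658. In 2 members, Rplp2 and Rps3, every 2w-WD array lay below every CHOW array (5.0%, against 0.83% of all genes in that direction).

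Rps3, a small-subunit protein at the mRNA entry channel that also cuts damaged DNA, had the smallest p. Its log2 levels in CHOW were 14.31, 14.22, 14.07, 14.07 and 14.07. In 2w-WD they were 13.92, 13.66, 14.02, 13.33 and 13.93. The groups did not overlap, and the lowest value was again that of replicate 4. The difference was -0.38 ± 0.11 (SE; limma adjusted p = 0.480).

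Rpsa, a small-subunit protein also known as the laminin receptor, stood at 14.45, 14.49, 14.28, 14.39 and 14.46 in CHOW. In 2w-WD it stood at 14.34, 13.82, 14.31, 13.86 and 14.43. Replicates 2 and 4 were low, and the other 3 lay within the CHOW range (difference -0.26 ± 0.11 SE, limma adjusted p = 0.501).

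Rps4x, the X-linked small-subunit protein, showed the same 2 low arrays: 13.01, 12.28, 12.98, 11.92 and 13.05 in 2w-WD, against 13.16, 13.07, 13.01, 13.16 and 13.17 in CHOW (difference -0.47 ± 0.18 SE, limma adjusted p = 0.492). Rps26, a small-subunit protein near the mRNA exit channel, stood at 13.03, 13.13, 12.94, 13.07 and 12.85 in CHOW and at 12.86, 12.70, 12.88, 12.18 and 12.93 in 2w-WD (limma adjusted p = 0.509). Without 2w-WD replicates 2 and 4, a choice made after seeing the data, the median member change was 0.02 with 22 of 40 above 0, and the median of all genes was -0.01. Without those arrays 1 member was lower at an unadjusted p under 0.05, in place of 8. Without replicate 4 alone there were 3, and without replicate 2 alone 1. Leaving out arrays lowers the power for every gene, and the shares of all genes at that p are not given for these settings. These counts therefore do not set members apart from other genes.

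The next intervals are those of the probe set that represents each gene. In 18 of the 21 bright members the 95% interval of 2w-WD minus CHOW lay within ±0.5 (a 1.41-fold change in either direction), and in all 21 within ±1. Among the 19 dimmer members only 3 intervals lay within ±0.5, and that of Rps19 reached from -1.76 to -0.04. Other probe sets of the same gene could lie far outside: Rpl13a had -0.91 on a dimmer one against -0.01, and Rpl22 -0.59 against -0.05. In this comparison 10 of 19 genes with several probe sets above the filter had both signs among them.

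**Figure D3:**
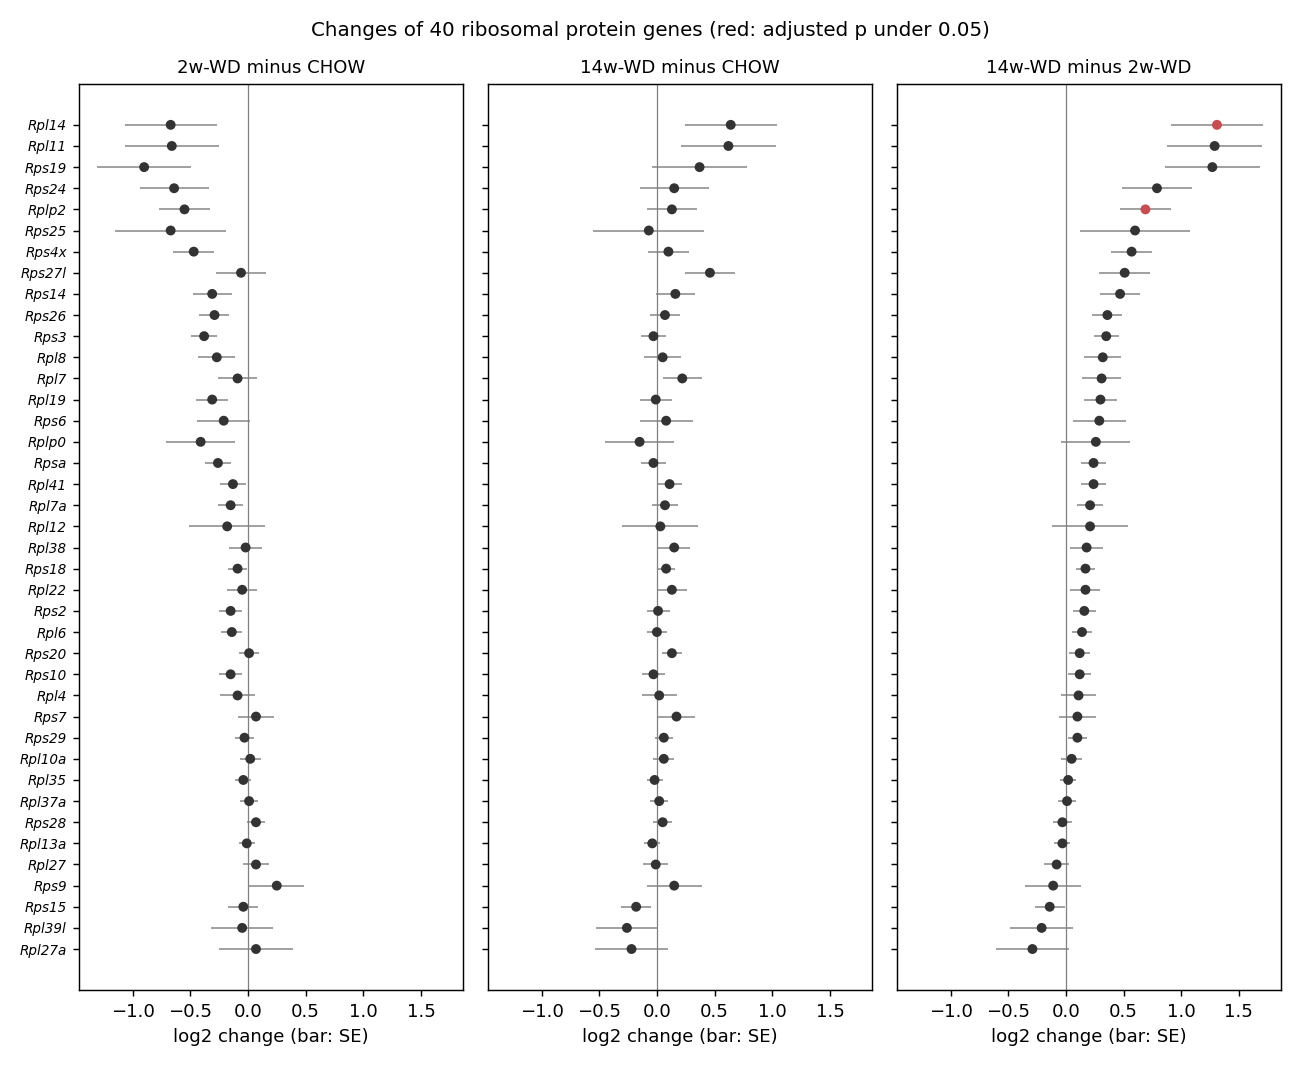
Differences of group means (points, log2) with limma's SE (bars) for 40 ribosomal protein genes in the 3 comparisons, ordered by the difference of 14w-WD minus 2w-WD, with red for an adjusted p under 0.05. Rpl14 (1.31) and Rplp2 (0.69) are red in the right panel, and most members of the middle panel lie near 0, from -0.26 to 0.64.

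The comparison of 14w-WD with CHOW, both ending at week 22, asks what the long diet changed. On the probe sets that represent them members differed little, and the median member was 0.06 higher in 14w-WD. Of 40 members 27 (67.5%) had a higher mean, and the range ran from -0.26 (Rpl39l) to 0.64 (Rpl14). The median of all tested genes was 0.16 higher, with 65.6% of them above 0. Under quantile normalization the median member difference became -0.01 and that of all genes 0.00, so the sign of the median rests on the scaling. By limma 0 of 40 members passed (0.00839% of all genes did), and 0 had an unadjusted p under 0.05, against 15.9% of all genes. That share comes from dimmer genes: 1892 of the 11658 tested genes below 13 had such a p, and 1 of the 267 brighter ones. For the 21 bright members a count of 0 therefore does not set them apart from other bright genes. In all 21 bright members the 95% interval lay within ±1, and in 19 of them within ±0.5. Among the 19 dimmer members only 5 intervals lay within ±0.5 and 15 within ±1, and that of Rpl11 reached 1.48.

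Rps27l, the paralog of Rps27 that is a known p53 target, had the smallest p here and was the one member whose groups did not overlap (2.5%, against 3.09% of all genes in that direction). It stood at 11.52, 11.98, 12.23, 11.88 and 11.81 in CHOW. In 14w-WD it stood at 12.38, 12.33, 12.35, 12.34 and 12.31, a much narrower range. The difference was 0.46 ± 0.22 (SE), a 1.37-fold change with a 95% interval of 0.992 to 1.90, and did not pass (limma adjusted p = 0.326). The 3 Rps27l probe sets gave nearly the same difference, 0.46, 0.44 and 0.43. In 2w-WD it stood at 12.22, 12.07, 12.03, 10.84 and 11.96, with replicate 4 far below the rest. Rps27 itself lay below the filter at a mean of 5.34 and was not tested.

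The next smallest p-values belonged to Rpl14, Rpl11, Rps15 and Rps20, with differences of 0.64, 0.62, -0.18 and 0.13 and limma adjusted p-values from 0.437 to 0.519. Several well-studied members gave small differences. Rpsa differed by -0.03, Rps3 by -0.03, Rplp0 (the base of the stalk that recruits elongation factors) by -0.15 and Rps6 (the substrate of S6 kinase downstream of mTOR) by 0.08, all within 1 SE. Rpl13a, part of the complex that silences inflammatory mRNAs in monocytes, and Rpl22, known for its role in T cell development, differed by -0.04 and 0.13, and Rpl7, a large-subunit protein, by 0.22. None of these passed. Other probe sets above the filter gave 0.06 and 0.99 for Rpl22, 0.94 for Rps15, 0.39 for Rps3 and -0.69, 0.17 and 1.07 for Rps20. For Rpl13a they ran from -0.07 to 0.24, and for Rpl7 the value was 0.27. In this comparison 8 of 19 genes with several probe sets above the filter had both signs. The median spread within a gene was 0.25 and the largest 1.76, in Rps20.

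The comparison of 14w-WD with 2w-WD asks how long and short feeding differ. Of 40 members, 2 rose and 0 fell in 14w-WD by limma (5.0%), while 11.2% of all tested genes passed, 10.1% upward and 1.15% downward. With the mean of a gene's probe sets the shares were 17.5% of members and 14.9% of all genes, and without _x_at and _s_at probe sets 7 of 35 members and 13.4%, so whether members passed more or less often than all genes turned with the choice of probe set. The median member was 0.19 higher and 33 of 40 (82.5%) were above 0, against 0.23 and 65.2% for all genes. With quantile normalization the medians were 0.07 for members and 0.01 for all genes, and with centring each array on its median 0.12 and 0.16. At an unadjusted p under 0.05, 12 members were higher (30%, against 25.9% of all genes). In 8 members every 14w-WD array lay above every 2w-WD array (20.0%, against 7.06% of all genes in that direction): Rpl11, Rpl14, Rplp2, Rps4x, Rps14, Rps24, Rps26 and Rps27l. These 2w-WD arrays are the ones used against CHOW above, so both comparisons share their low values.

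Rpl14, a large-subunit protein, rose. Its levels were 7.49, 6.86, 6.51, 6.57 and 6.34 in 2w-WD. In 14w-WD they were 7.78, 7.49, 8.58, 8.60 and 7.87. In CHOW they were 6.65, 7.62, 7.48, 8.88 and 6.50, which overlaps both diet groups. The 2 diet groups met at 7.49 without crossing. The rise was 1.31 ± 0.40 (SE), a 2.48-fold change with a 95% interval of 1.39 to 4.43 (limma adjusted p = 0.0439).

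Rplp2, an acidic stalk protein that binds elongation factors, also rose. Its levels were 12.24, 11.47, 12.18, 10.89 and 12.16 in 2w-WD and 12.47, 12.57, 12.51, 12.30 and 12.52 in 14w-WD. In CHOW they were 12.40, 12.28, 12.30, 12.41 and 12.31, above all 2w-WD arrays and overlapping the lowest 14w-WD array. The rise was 0.69 ± 0.22 (SE), 1.61-fold with a 95% interval of 1.17 to 2.20 (limma adjusted p = 0.0490).

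Both calls sat close to the threshold and changed with single arrays. Without 2w-WD replicate 4 the change of Rplp2 was 0.46 (limma adjusted p = 0.0872), and without replicates 2 and 4 it was 0.28 (0.209). Rpl14 kept its size without them, 1.28, at an adjusted p of 0.219. Over all 29 settings the adjusted p ran from 0.0102 to 0.219 for Rpl14 and from 0.0116 to 0.209 for Rplp2. The number of members called was 0 without CHOW replicate 2 or 3, without 2w-WD replicate 2 or 4, or without 14w-WD replicate 1, 2, 3 or 5. Of all genes, 9.2% and 9.32% passed without CHOW replicate 2 or 3, and 2.18% without 2w-WD replicate 2 or 4. Without 14w-WD replicate 1, 2, 3 or 5 the shares were 1.38%, 5.27%, 1.88% and 4.76%. The number of members called was 1 without CHOW replicate 4, 6 without CHOW replicate 1 and 9 without 2w-WD replicate 1. There 10.2%, 15.3% and 29.7% of all genes passed.

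Members with an adjusted p just above the threshold were Rpl11, Rps4x, Rps19 and Rps3. Rpl11, the Mdm2-binding large-subunit protein, stood at 9.66, 7.89, 9.40, 7.97 and 8.54 in 2w-WD and at 10.10, 10.13, 10.17, 9.72 and 9.77 in 14w-WD. In CHOW it ran from 8.25 to 10.08. Its difference was 1.29 ± 0.41 (SE, limma adjusted p = 0.0505).

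Rps19, a small-subunit protein mutated in Diamond-Blackfan anaemia, stood at 9.01, 7.45, 8.15, 7.0 and 7.95 in 2w-WD and at 9.49, 9.52, 9.37, 8.52 and 9.01 in 14w-WD. Its CHOW levels were 9.72, 8.99, 8.34, 9.08 and 7.91. The difference was 1.27 ± 0.41 (SE, limma adjusted p = 0.0520). Rps4x differed by 0.57 ± 0.18 (SE) and Rps3 by 0.35 ± 0.11, with limma adjusted p-values of 0.0516 and 0.0525.

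The other members whose diet groups did not overlap were Rps14, Rps24, Rps26 and Rps27l. Rps24, a small-subunit protein also mutated in Diamond-Blackfan anaemia, stood at 12.17, 11.25, 12.29, 10.27 and 12.24 in 2w-WD and at 12.54, 12.48, 12.30, 12.42 and 12.43 in 14w-WD. Replicates 2 and 4 were low by more than the whole range of the other arrays, and the CHOW values lay from 12.09 to 12.38 (difference 0.79 ± 0.30 SE, limma adjusted p = 0.0837). Rps14, the small-subunit protein lost in the 5q deletion of human myelodysplasia, stood at 13.52, 12.62, 13.63, 12.88 and 13.59 in 2w-WD and at 13.67 to 13.78 in 14w-WD (difference 0.47 ± 0.17 SE, limma adjusted p = 0.0844). Rps26 differed by 0.36 and Rps27l by 0.51, with limma adjusted p-values of 0.0750 and 0.123.

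Other members showed no such split. Rplp0, often used as a reference gene, was among the more variable ones: 12.17, 12.37, 11.43, 11.33 and 10.75 in CHOW, 11.56, 11.37, 11.37, 10.83 and 10.88 in 2w-WD, and 11.91, 11.81, 11.69, 10.88 and 11.01 in 14w-WD. All 3 groups overlapped. Rps6 ran from 10.39 to 11.60 in 2w-WD and from 11.28 to 11.55 in 14w-WD, a difference of 0.29. On the probe sets that represent them, Rpl13a, Rpl22 and Rpl7 differed by -0.03, 0.17 and 0.31. Other probe sets above the filter gave 0.89, 0.07 and -0.1 for Rpl13a, 0.44 and 1.58 for Rpl22 and 0.71 for Rpl7. The 7 members with a lower mean in 14w-WD on these probe sets were Rpl13a, Rpl27, Rpl27a, Rpl39l, Rps9, Rps15 and Rps28. The lowest difference, -0.29, was in Rpl27a, a large-subunit protein. Their direction often turned with the probe set. Others above the filter gave 0.53 and -0.23 for Rpl27, 0.43 and 1.15 for Rps9, 1.32 for Rps15 and 0.08 and 0.04 for Rps28. Of the 21 bright members, 18 had a 95% interval within ±0.5 and all 21 within ±1. Of the 19 dimmer members only 2 had one within ±0.5 and 13 within ±1, and that of Rpl14 reached 2.15.

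**Figure D4:**
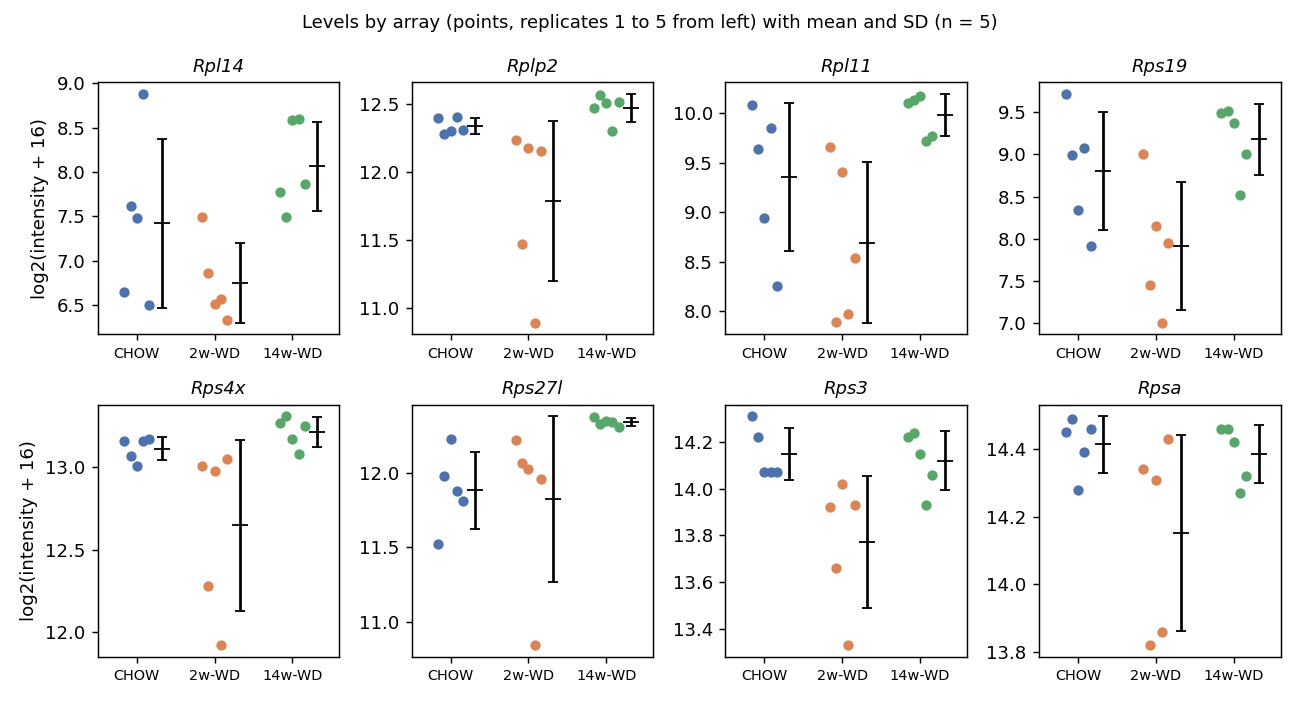
log2(intensity + 16) of 8 ribosomal protein genes by array (points, replicates 1 to 5 from left to right) in CHOW, 2w-WD and 14w-WD, with the mean and SD of 5 arrays at the right of each group; each panel has its own y axis. In Rplp2, Rps4x, Rps3 and Rpsa the points of 2w-WD replicates 2 and 4 lie below all others, and in Rps27l only replicate 4 does.

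The subunits gave these values in the same comparison. The 21 large-subunit members had a median difference of 0.18 and 2 calls, and the 19 small-subunit members had 0.24 and 0 calls. Of the members with the tract at their annotated start 7 were tested, with a median of 0.18 (0.02 to 1.31), and the 28 tested members without it had a median of 0.19 (-0.29 to 1.29). Rpl14 and Rplp2, the 2 that rose, both have it, and so do Rpl35 and Rps10, which differed by 0.02 and 0.12. Rpl11, Rps3, Rps4x and Rps19, just above the threshold, do not have it at their annotated start. The median was 0.14 for the 21 bright members and 0.32 for the 19 dimmer ones. All tested genes of the same brightness classes had medians of 0.13 and 0.24.

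Members below the filter were Rps4l (4.47), Rps16 (4.55), Rpl39 (5.25), Rps27 (5.34), Rpl37 (5.39) and Rpl3l (5.66 at 2 decimals), for a filter of 5.66. Rpl3l, the paralog of Rpl3 known from heart and skeletal muscle, lay just outside with a mean of 5.660, and Rpl39l, the paralog of Rpl39 known from the testis, just inside with 5.86. Rpl3l was lowest, at 5.10, on CHOW replicate 4 and highest, at 6.23, on 2w-WD replicate 1. These arrays also had the lowest and highest means of the heart muscle markers, 6.72 and 11.95. Rpl39l averaged 5.96 on CHOW arrays (SD 0.38), 5.91 on 2w-WD arrays (SD 0.50) and 5.70 on 14w-WD arrays (SD 0.43), with no comparison past the test. Rps16, Rpl37 and Rpl39 encode core proteins of the cytosolic ribosome, and their low signal is that of the 1 probe set each had here.

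Of the ribosomal protein genes outside the symbol pattern, 3 were measured here. Fau, whose product includes a small-subunit protein, differed by 0.23 ± 0.11 (SE) between 14w-WD and 2w-WD (limma adjusted p = 0.164). Rpl22l1, the paralog of Rpl22, differed by 0.92 ± 0.31 (limma adjusted p = 0.0633), and Rpl7l1 by 0.29 ± 0.29. Rpl36al and Rack1, outside the pattern, and Rpl10l and Rps27a, whose symbols fit it, are not analysed here.

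Different probe sets of a gene often disagreed. The 40 tested members had 81 probe sets above the filter, and 19 genes had more than 1. In 14w-WD against 2w-WD, 8 of these 19 genes had probe sets with differences of both signs. Several dim probe sets gave larger values than the bright representative of the same gene. For Rps10 the representative (mean level 13.65) differed by 0.12 and another (9.59) by 1.85. For Rpl22 the values were 0.17, 0.44 and 1.58 at mean levels of 13.42, 12.22 and 8.70. For Rps20 they ran from -0.51 to 1.43, at 5.86 and 6.75, while its 2 bright probe sets gave 0.12 and 0.02. For Rps24 all 4 lay between 0.79 and 1.60. Taking the mean of a gene's probe sets, 7 of 40 members passed in this comparison in place of 2, while 14.9% of all genes passed in place of 11.2%.

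**Figure D5:**
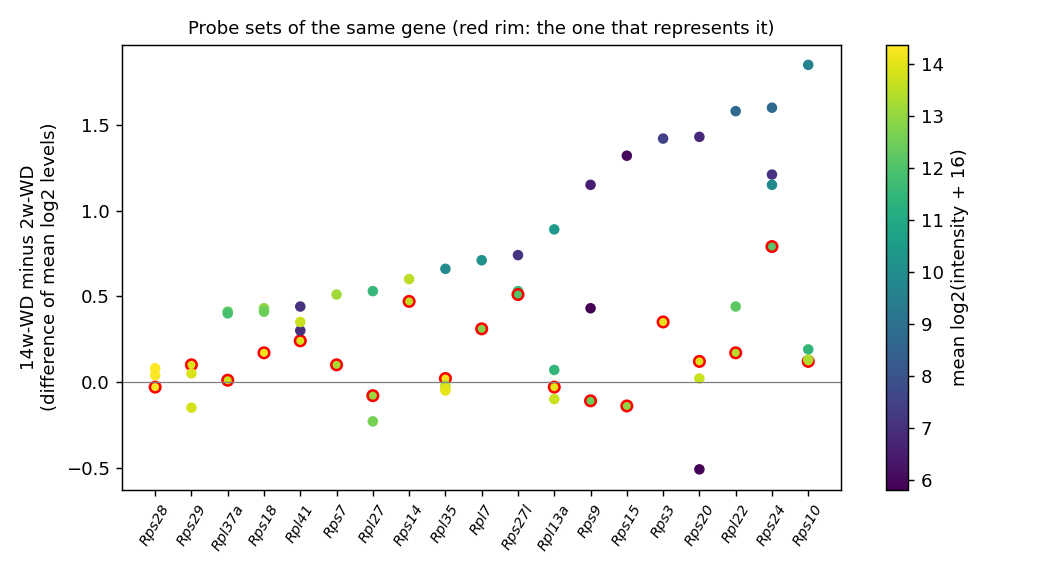
Difference of mean log2 levels between 14w-WD and 2w-WD (y) for each probe set above the filter of the 19 ribosomal protein genes with more than 1 (x), coloured by its mean log2 level, with a red rim for the brightest, which represents the gene. Most bright probe sets lie near 0, and the values above 1 belong to dimmer probe sets of Rps9, Rps15, Rps3, Rps20, Rpl22, Rps24 and Rps10.

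The other genes of ribosome production and translation were counted from lists of named genes. In 2w-WD and 14w-WD against CHOW 0 of these genes passed by limma. In 14w-WD against 2w-WD, where 11.2% of all tested genes passed, the translation elongation list had 3 of 12 higher and 0 lower, and the initiation list 7 of 36 higher and 0 lower. Eef1a1, which brings aminoacyl-tRNA to the ribosome, averaged 13.86 on 14w-WD arrays (SD 0.05) and 13.52 on 2w-WD arrays (SD 0.26; limma adjusted p = 0.0436). Eef1b2, its exchange factor, rose by 2.01 ± 0.47 (SE, adjusted p = 0.0201 by limma), and Eif5b, which joins the subunits, by 1.39 ± 0.22 (adjusted p = 0.00553 by limma). The lists came from knowledge of the pathway and were not tested as sets.

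The ribosome assembly list had 8 of 72 higher and 1 lower, and the RNA polymerase I list, whose enzyme makes ribosomal RNA, 3 of 11 higher and 0 lower. Rrn3, which brings RNA polymerase I to ribosomal DNA, rose by 1.54 ± 0.29 (SE, limma adjusted p = 0.0113). Polr1d, a subunit that RNA polymerases I and III share, rose by 2.19 ± 0.42 at the same adjusted p. Of the Myc, mTOR and Larp1 list 3 of 27 rose and 0 fell: Rheb, the GTPase that activates mTOR, by 1.11, Lamtor3 by 0.66 and Larp4 by 1.94. Of the p53 list 1 of 9 rose (Zmat3, by 1.69). Mdm2, the p53 ligase that Rpl11 binds, differed by 1.01 ± 0.27 (SE) between 14w-WD and CHOW (limma adjusted p = 0.129).

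The mitochondrial ribosomal proteins, a separate set of 76 genes of which 68 were tested, had median differences of -0.24 in 2w-WD against CHOW, 0.33 in 14w-WD against CHOW and 0.53 in 14w-WD against 2w-WD. In the last, 5 rose and 1 fell (8.82%). Mrps14 rose by 2.10 (limma adjusted p = 0.0207) and Mrpl52 fell by 0.56 (limma adjusted p = 0.0204). Their median within-group SD was 0.56, against 0.22 for the cytosolic members. The difference between both sets was not tested.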

How the data were processed

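The authors' deposited table holds 1 linear intensity for each of 45037 probe sets on each of 15 Affymetrix Mouse Genome 430 2.0 arrays. Its summarisation, background correction and normalization are not given in the sources used here. Per the labels' protocols, RNA was extracted with PicoPure, amplified with RiboAmp HS and biotin-labelled. No counting depth exists, and the number of arrays limits the precision.

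Values were turned into log2(intensity + 16). Probe sets were named by the array's GEO annotation: 34945 had 1 gene, 932 several and 9160 none, and 34741 matched the GRCm38.p6 gene table. The probe set with the highest mean represented a gene. Genes with a mean under the median of all probe sets (5.66, an intensity of 34.6) were left out. limma 3.58.1 in R 4.3.3 (lmFit, eBayes with trend) was fitted to all 15 arrays and 11925 genes, with Benjamini-Hochberg adjustment over all of them and two-sided tests, and was tested on simulated data. Intervals are 95%. Tables and figures used Python 3.11.15, pandas 2.3.3 and matplotlib 3.10.9. Replicate numbers come from the titles. No label says that same-numbered arrays are pairs, so the numbers were not used as pairs in the main fit. Same-numbered arrays of different groups had correlations of their deviations from -0.166 to 0.477. Of these 7 of 15 were over 0.1, against 14 of 60 other pairs, so some shared structure is possible. A fit with the number as a block is given below.

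Members and lists were chosen with earlier results of these data known. Named members were, per comparison, those past the threshold, filled up to 5 by smallest p, with fixed stalk, p53 and paralog members. From the other lists up to 4 members past the threshold were eligible. Other members named for their place in a ranking, their probe sets or their groups' overlap were chosen after their values were seen. Alternatives were other pseudocounts, no filter, quantile normalization, median centring, array weights, a replicate block, fits of the compared groups alone, other probe set choices and leaving out arrays.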

Additional observations from a re-analysis of the deposited data

Results flagged for a closer look

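Of 54 groups of 5 arrays checked for named members, 4 had an array far from the other 4, and chance alone marks about 1 in 20 groups. Rpl13a stood at 13.80 on CHOW replicate 1, against 14.06 to 14.14 on the other CHOW arrays. Rpl22 stood at 12.92 on the same array, against 13.47 to 13.58. Rpl7, a large-subunit protein, stood at 12.14 there, against 12.73 to 12.94. Rps27l stood at 10.84 on 2w-WD replicate 4, against 11.96 to 12.22 on the other 2w-WD arrays.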

How the results depend on the processing

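No named member's called change turned sign under an alternative. In 2w-WD against CHOW 0 members and 0 genes passed in each alternative. The median member change moved from -0.13 to 0.02 without 2w-WD replicates 2 and 4. It was -0.27 without _x_at and _s_at probe sets (all genes -0.11) and -0.18 with the mean of probe sets (all genes -0.09). Leaving out single arrays gave -0.17 to -0.03. In 14w-WD against CHOW, 1 of all genes passed, against 7 with a pseudocount of 64, 17 with no filter, 0 with quantile normalization, 2234 with array weights, 122 when only the 2 groups were fitted, 0 with the mean of probe sets, 9 without _x_at and _s_at probe sets, 9 without 2w-WD replicates 2 and 4, 1353 without the 3 arrays of lowest weight (2w-WD replicate 1, CHOW replicate 1 and 2w-WD replicate 4), and 0 to 201 without single arrays. Without those 3 arrays 1 member passed, Rps27l (0.37, limma adjusted p = 0.0486). In 14w-WD against 2w-WD, 2 members passed, against 1 with a pseudocount of 1, 0 with no filter, 1 with quantile normalization, 0 with median centring, 10 with array weights, 7 with the mean of probe sets, 7 without _x_at and _s_at probe sets, 0 without 2w-WD replicates 2 and 4, 6 without the 3 arrays of lowest weight, and 0 to 9 without single arrays. All genes called there were 1338, against 1512 with the mean of probe sets, 1502 without _x_at and _s_at probe sets, 3839 with array weights, 4 without 2w-WD replicates 2 and 4, 3175 without the 3 arrays of lowest weight, and 164 to 3536 without single arrays. Shares of all genes passing there were 10.3% with a pseudocount of 1, 5.94% with no filter, 7.78% with quantile normalization and 9.78% with median centring. The median member change of 0.19 became 0.04 without 2w-WD replicates 2 and 4, 0.29 with the mean of probe sets and 0.32 without _x_at and _s_at probe sets. Medians of all genes in these settings were 0.13, 0.24 and 0.25. Of the calls over all genes 89.8% were higher, against 69.0% under quantile normalization. With the replicate number as a block, 6 members and 2122 genes passed in 14w-WD against 2w-WD, and 20 genes in 14w-WD against CHOW; 12 of 30 best partners in another group carried the array's own number, and 7 of 15 same-numbered pairs but 14 of 60 others correlated over 0.1 (medians 0.087 and -0.024), a hint from the data that falls short of every pair. The cause of these moves was not tested. Leaving out arrays 2 and 4 of 2w-WD or the 3 arrays of lowest weight was chosen after seeing the data. For dim members the signal over background limits what can be resolved.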
